A study of Mus musculus with 7 samples.

Results

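NRF2, the transcription factor encoded by Nfe2l2, and 9 of its antioxidant target genes were followed in proliferating C2C12 cells, which are myoblasts of a mouse line. The genes were Nfe2l2, Hmox1, Nqo1, Gclc, Gclm, Txnrd1, Srxn1, Gsr, G6pdx and Prdx1, taken by name as known members of the pathway, without a threshold on measured values but with earlier results of these data known. All 10 were rows of the deposited expression table, which has 13376 rows. Each row gives FPKM, fragments normalised by the authors for transcript length and library size, which allows an approximate comparison between genes and between libraries. Summed FPKM ran from 1515596 to 2466046 over the libraries, while library factors from the median ratio of rows ran from 0.985 to 1.018. Cells were treated with a scrambled control siRNA (labelled si-scr, genotype control) or with an siRNA against the long noncoding RNA lnc-31 (labelled si-lnc-31, genotype lnc31 knockdown), with 2 libraries for each. The same series holds an RNA pull-down from C2C12 cells with 1 library for the probes against lnc-31 (labelled ODD) and 1 for control probes against lacZ, both given as peak lists.

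In resting cells NRF2 protein is bound by KEAP1, an adaptor for a CUL3 and RBX1 ubiquitin ligase, and is degraded. Oxidants and electrophiles modify KEAP1, NRF2 accumulates, pairs with a small MAF protein and activates genes that carry an antioxidant response element, while BACH1 occupies the same elements as a repressor until heme displaces it. Because the control lies largely in protein stability, the mRNA of Nfe2l2 is an incomplete measure of the pathway, and the target mRNAs are its usual readout. Some targets, such as the cystine transporter gene Slc7a11, are also driven by ATF4, the transcription factor of the integrated stress response.

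The core of the antioxidant response element is TGACNNNGC, and it was searched on both strands in RefSeq promoter windows of build GRCm38.p6, each running from 250 bases upstream to 50 bases downstream of a transcript start. Windows were matched for 7 of the 10 genes. Those not matched were Hmox1, Gsr and Gclc. These 7 genes have 9 windows, of which 6 held the core, 1 for each of 6 genes, against a share of 12.4% of all 32851 windows in the table. There was no core of these letters in the window of Nqo1. The matches are shown because NRF2 and BACH1 act through elements that hold this core, and a match of the core alone need not be such an element. The search did not fix the base before TGAC. That base is a for Prdx1 and Txnrd1, c for Nfe2l2 and Srxn1 and t for G6pdx and Gclm. Capitals mark the core, lower case gives 10 bases on each side, and each is written 5′ to 3′ on the strand that carries TGAC.
Nfe2l2: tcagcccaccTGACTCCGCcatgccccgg
Prdx1: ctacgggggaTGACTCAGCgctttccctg
G6pdx: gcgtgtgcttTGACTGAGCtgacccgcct
Txnrd1: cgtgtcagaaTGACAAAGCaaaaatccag
Gclm: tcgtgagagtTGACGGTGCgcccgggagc
Srxn1: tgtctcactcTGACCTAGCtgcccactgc
These stretches lie at chr2:75704885-75704913 (minus strand), chr4:116685456-116685484 (minus), chrX:74428919-74428947 (plus), chr10:82859104-82859132 (minus), chr3:122245413-122245441 (minus) and chr2:152105542-152105570 (minus), in the order shown. The centre of the core was 236, 129, 53, 88 and 130 bases upstream of the transcript start for Nfe2l2, Prdx1, G6pdx, Txnrd1 and Gclm, and 33 bases downstream of it for Srxn1. For Txnrd1 the core stood in 1 of its 3 windows. A match of these letters is a description and was not tested for binding.

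The files give no read counts, so depth is unknown and precision rests on the spread between 2 libraries per group. Whether the 2 libraries of a group are separate cultures is not stated in the labels, and p-values then measure only how far these libraries spread, which may be technical. On the first principal component (41.4% of the variance), lnc-31 siRNA 1 lay at 39.1 and the other libraries between -16.3 and -10.4. The row that names Mir31, at the lnc-31 locus, read 13.4 and 15.6 FPKM in the controls and 12.1 and 14.1 with lnc-31 siRNA (log2 fold change -0.14, limma adjusted p = 0.38), which is no fall that passes the test. The labels do not say whether this row measures the lnc-31 transcript, so the knockdown could not be checked on it, and directions are those of the libraries labelled lnc-31 siRNA. Among cell markers, 6 of 6 myoblast genes were rows of the table. Their summed level was 389 to 391 FPKM with scrambled siRNA and 448 to 457 with lnc-31 siRNA. By the limma test described below, 3 were called higher (Myod1, Des and Cdh15). Over all tested rows 5.64% were called higher and 6.78% lower, and these shares also stand beside the fibroblast counts. Myf5 went the other way, from 38.6 and 37.5 FPKM to 35.2 and 35.4, and did not pass (log2 fold change -0.10, adjusted p = 0.16). With 1 library left out, Myod1 kept its call only without lnc-31 siRNA 1 (adjusted p = 0.032, against 0.061 to 0.096 for the other libraries), and Des (0.059 to 0.121) and Cdh15 (0.077 to 0.121) lost theirs each time, as they did with a constant prior variance (0.052 and 0.055). Of 6 fibroblast markers 3 were rows (Thy1, Lum and Col15a1 were not), with sums of 50.8 to 51.9 and 63.3 to 64.1 FPKM and 2 higher (Dcn and Pdgfrb). Dcn kept its call under all 12 alternatives, whereas Pdgfrb lost it without any 1 library (adjusted p from 0.098 to 0.139) and with a constant prior variance (0.069). Of 4 macrophage markers 1 was a row (Cd68, 1.14 to 1.65 FPKM), of 4 adipocyte markers 1 (Pparg, 9.47 to 11.4), of 4 epithelial markers 1 (Krt8, 0.0993 to 0.54) and of 3 endothelial markers 0. The part of these shifts in the results below was not tested.

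All of the antioxidant genes were well expressed in proliferating myoblasts. With scrambled siRNA Prdx1, a peroxiredoxin that reduces peroxides, had the highest level (795 ± 11.98 FPKM, SD, n = 2), above 98.9% of the tested rows. Hmox1 followed at 354 ± 2.61 FPKM, then Nqo1 (230.2 ± 1.73), Txnrd1 (217 ± 0.249), Srxn1 (135 ± 4.82), G6pdx (110.3 ± 1.11), Gsr (82.6 ± 3.63), Gclm (76.3 ± 0.614), Nfe2l2 itself (60.9 ± 0.113) and Gclc (34.6 ± 0.607). The last stood above 75.9% of tested rows. Neighbours in this order did not overlap in the 2 scrambled siRNA libraries. With lnc-31 siRNA the order was the same, and the one pair of neighbours that overlapped was Nqo1 and Txnrd1.

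Of the 10 genes, 4 fell in the libraries labelled lnc-31 siRNA, while none rose and 6 did not pass the test. The 4 were Hmox1, which degrades heme, the quinone reductase Nqo1, the thioredoxin reductase Txnrd1 and G6pdx, which makes NADPH. The test was limma on log2(FPKM + 1) over the 11500 rows that averaged at least 1 FPKM, with a call at a Benjamini-Hochberg adjusted p under 0.05. Over all tested rows 6.78% were called lower and 5.64% higher. All 10 genes passed the filter in both groups. Their median log2 fold change was -0.09, against -0.01 for all tested rows. The groups did not overlap for 7 of the 10 (6 lower and 1 higher), where 60.2% of all tested rows had groups that did not overlap. By direction, 31.7% of all tested rows had lnc-31 siRNA below and 28.5% above. In a bulk sample, fewer cells of a type and less RNA per cell cannot be told apart.

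**Figure D1:**
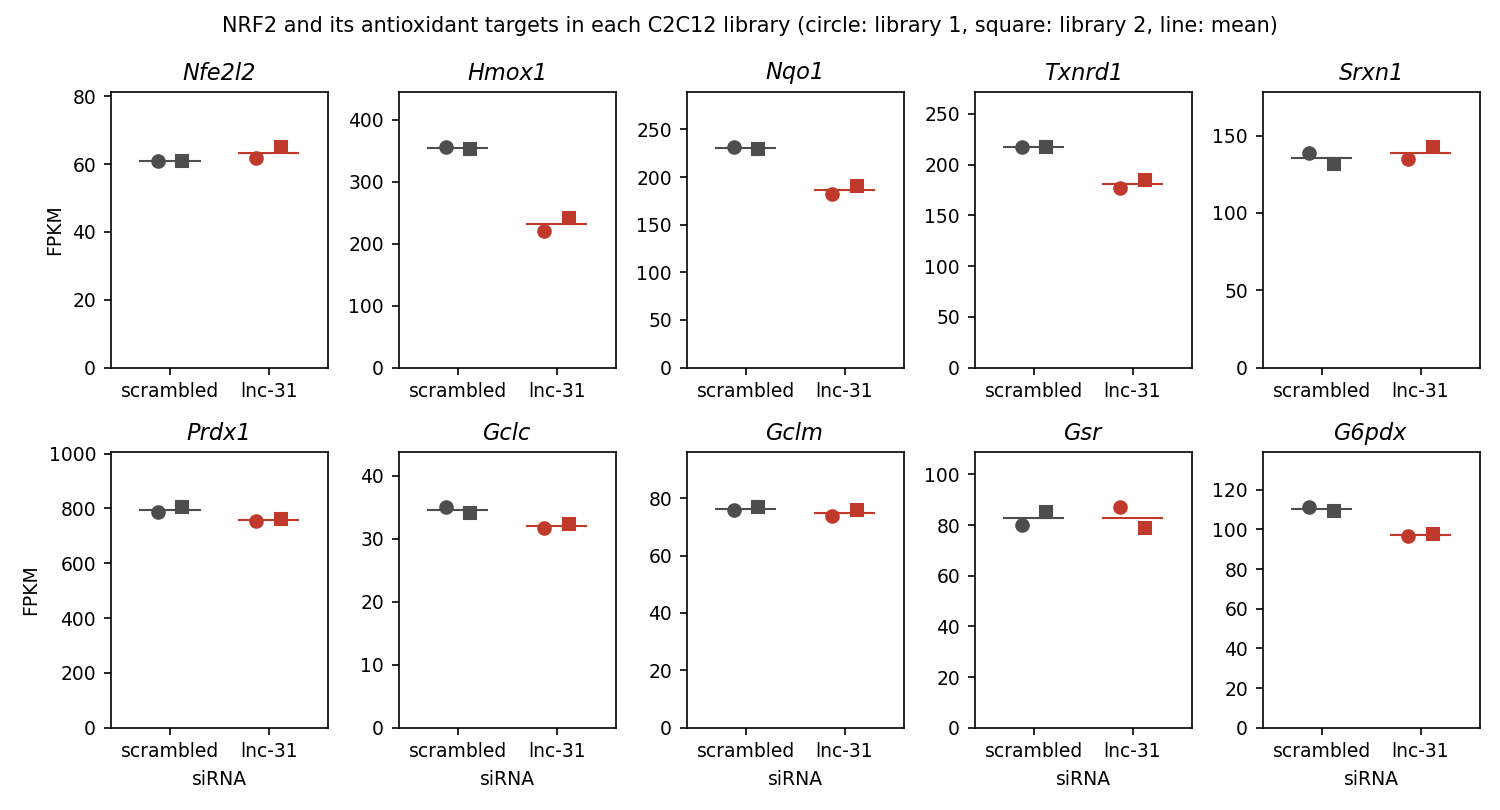
FPKM (vertical axes, from 0) of Nfe2l2 and 9 target genes in the scrambled and lnc-31 siRNA libraries; circles are library 1, squares library 2 and lines group means. Hmox1, Nqo1, Txnrd1 and G6pdx lie lower in both lnc-31 siRNA libraries, while Srxn1, Gclm and Gsr overlap between groups.

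Nfe2l2, the regulator itself, read 61.0 and 60.8 FPKM in the scrambled siRNA libraries and 61.6 and 65.0 with lnc-31 siRNA. Both lnc-31 siRNA libraries were slightly above both controls, and the difference did not pass the test (log2 fold change 0.06, 95% interval -0.05 to 0.16, adjusted p = 0.44).

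Hmox1 encodes heme oxygenase 1, which opens the heme ring and releases iron, carbon monoxide and biliverdin, and it lies on chromosome 8, 75093618 to 75100593. It was at 356 and 352 FPKM in the scrambled siRNA libraries and at 220.2 and 242 in those labelled lnc-31 siRNA. Both lnc-31 siRNA libraries were far below the controls, at 62.2% and 68.3% of the control mean. Its log2 fold change was -0.61 (SE 0.056, 95% interval -0.75 to -0.47, adjusted p = 0.0063). This was the 66th lowest of the 11500 tested rows. The call held with each library left out in turn (adjusted p from 0.014 to 0.044) and under the 8 other settings tried (0.0040 to 0.019).

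Nqo1, on chromosome 8, 107388225 to 107403205, encodes a reductase that turns quinones into hydroquinones without a radical intermediate. Its level was 231 and 229 FPKM with scrambled siRNA and 182 and 191 with lnc-31 siRNA. There was no overlap, and the lnc-31 siRNA libraries stood at 78.9% and 83.0% of the control mean. Its log2 fold change was -0.30 (SE 0.044, adjusted p = 0.017). The call held without lnc-31 siRNA 2 (adjusted p = 0.042) and was lost when scrambled siRNA 1 (0.092) or 2 (0.082) or lnc-31 siRNA 1 (0.059) was dropped, while the log2 fold change stayed between -0.34 and -0.27.

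The thioredoxin system reduces protein disulfides with electrons from NADPH. Txnrd1, the cytosolic thioredoxin reductase and a selenoprotein (chromosome 10, 82833951 to 82897724), stood at 217 and 217 FPKM with the scrambled siRNA and 177 and 185 with lnc-31 siRNA. The lnc-31 siRNA libraries stood at 81.4% and 85.1% of the control mean. The log2 fold change was -0.26 (SE 0.043, adjusted p = 0.021). The call did not survive the loss of any library (adjusted p = 0.105 when scrambled siRNA 1 was dropped, 0.102 for scrambled siRNA 2, 0.077 for lnc-31 siRNA 1 and 0.052 for lnc-31 siRNA 2), with log2 fold changes of -0.30 to -0.23.

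The other genes of this system differed less. Srxn1, sulfiredoxin, which repairs overoxidized peroxiredoxins, had 139 and 132 FPKM in the controls and 135 and 143 with lnc-31 siRNA. The groups overlapped (log2 fold change 0.03, 95% interval -0.09 to 0.16, adjusted p = 0.68). Prdx1 read 787 and 804 FPKM in the scrambled siRNA libraries and 753 and 759.7 with lnc-31 siRNA. The lnc-31 siRNA libraries were both lower, at 94.8% and 95.5% of the control mean, but the difference did not pass the test (log2 fold change -0.07, adjusted p = 0.35). Under quantile normalization the log2 fold change was -0.004. RefSeq names 1 pseudogene for Prdx1, and no source used here states how the authors' counting divided reads between near-identical copies.

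The enzymes that make and recycle glutathione, the main soluble thiol of the cell, did not pass the test. Gclc, the catalytic subunit of the rate-limiting ligase, stood at 35.0 and 34.1 FPKM with the scrambled siRNA and 31.7 and 32.3 with lnc-31 siRNA. Both of the latter were below both controls, the log2 fold change was -0.11 (95% interval -0.21 to -0.0025), and the adjusted p was 0.15. Gclm, its modifier subunit, had 75.9 and 76.8 FPKM in the controls and 73.9 and 76.0 with lnc-31 siRNA. These groups overlapped (log2 fold change -0.03, 95% interval -0.12 to 0.07, adjusted p = 0.70). Gsr, which reduces glutathione disulfide with NADPH, read 80.0 and 85.2 FPKM in the scrambled siRNA libraries and 86.9 and 79.0 with lnc-31 siRNA. Its libraries were spread more widely within groups than between them (log2 fold change 0.01, 95% interval -0.15 to 0.16, adjusted p = 0.97).

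G6pdx encodes the first enzyme of the pentose phosphate pathway, a main source of NADPH for both the thioredoxin and the glutathione systems (chromosome X, 74409483 to 74428880). It stood at 111.1 and 109.5 FPKM with the scrambled siRNA and at 96.6 and 97.7 with lnc-31 siRNA. The libraries of a group lay close together and the groups did not overlap, at 87.6% and 88.6% of the control mean. The log2 fold change was -0.18 (SE 0.038, adjusted p = 0.038), the smallest of the 4 falls. The call was lost with a constant prior variance (adjusted p = 0.081) and without any 1 library (0.164 when scrambled siRNA 1 was dropped, 0.137 for scrambled siRNA 2, 0.126 for lnc-31 siRNA 1 and 0.112 for lnc-31 siRNA 2), with log2 fold changes of -0.19 to -0.17 when a library was left out.

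In all 4 genes that fell, lnc-31 siRNA 1, the library that stood apart on the first principal component, had the lower value of the 2 lnc-31 siRNA libraries. Without it the log2 fold changes of Hmox1, Nqo1, Txnrd1 and G6pdx were -0.55, -0.27, -0.23 and -0.17. Without lnc-31 siRNA 2 they were -0.68, -0.34, -0.30 and -0.19. The direction was the same under every setting tried for these 4 genes, and only Hmox1 kept its call under all 12.

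**Figure D2:**
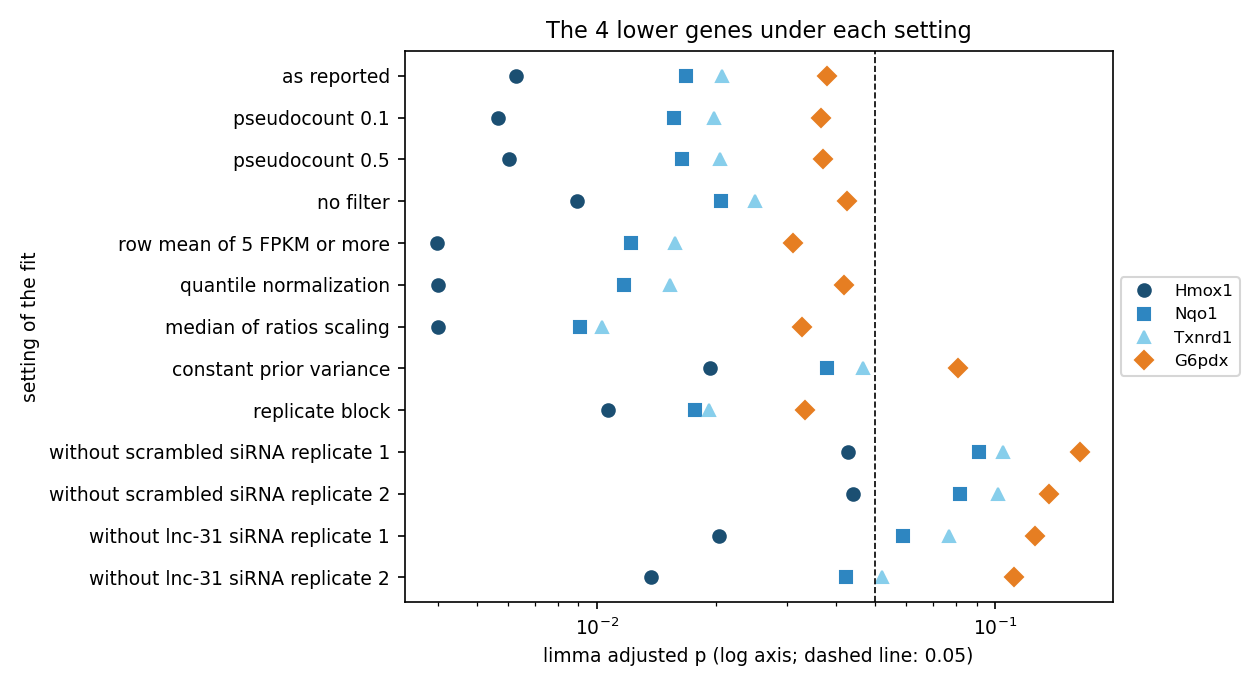
Adjusted p from limma (horizontal, log axis) of the 4 genes that fell under the reported fit and 12 alternatives (vertical); the dashed line is 0.05. Hmox1 stays left of the line throughout, whereas Txnrd1 and G6pdx lie right of it whenever 1 library is left out.

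The regulators of NRF2, together with the genes of its relatives Nfe2l1 and Nfe2l3, were examined as a list of 14 genes, of which 12 were tested. Nfe2l3 was not matched to a row, and Bach2, a relative of Bach1, averaged under 1 FPKM and was not tested (0.415 and 0.475 FPKM with scrambled siRNA, 1.14 and 0.954 with lnc-31 siRNA). Of the 12, 3 rose, none fell and 9 did not pass (median log2 fold change 0.06). Over all tested rows 5.64% were called higher and 6.78% lower. Nfe2l1, which encodes the related factor NRF1 that controls proteasome genes, rose from 61.7 and 65.9 FPKM to 85.0 and 89.2 (log2 fold change 0.44, adjusted p = 0.010). Bach1, the heme-sensitive repressor of antioxidant response elements, rose from 10.2 and 10.3 FPKM to 12.4 and 12.9 (log2 fold change 0.27, adjusted p = 0.031). Maff, a small MAF partner, rose from 9.06 and 9.94 FPKM to 11.6 and 11.9 (log2 fold change 0.28, adjusted p = 0.043). All 3 had groups that did not overlap, with lnc-31 siRNA above, as had 28.5% of all tested rows.

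Nfe2l1 lost its call without scrambled siRNA 1 (adjusted p = 0.055). Bach1 lost its call when either scrambled library (0.118 for 1, 0.113 for 2) or either lnc-31 siRNA library (0.083 for 1, 0.128 for 2) was dropped, and Maff likewise (0.15, 0.080, 0.12 and 0.149 in the same order). Maff also lost it with no filter (0.054) and with a constant prior variance (0.057).

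Other regulators did not pass the test. Keap1, which holds NRF2 for degradation, had 19.6 and 19.1 FPKM in the controls and 16.6 and 18.0 with lnc-31 siRNA, lower in both libraries (log2 fold change -0.15, adjusted p = 0.13). Sqstm1, the autophagy receptor p62 that can sequester KEAP1, was at 552 and 541 FPKM and at 580.1 and 601 (log2 fold change 0.11, adjusted p = 0.18). The small MAF genes stood at log2 fold changes of 0.21 for Mafk (adjusted p = 0.077) and -0.13 for the row that merges Mafg with Sirt7 (0.13). The ligase genes Cul3, Rbx1 and Btrc and the kinase gene Gsk3b lay between -0.10 and 0.09, and Dpp3, whose protein binds KEAP1, was at -0.03.

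**Figure D3:**
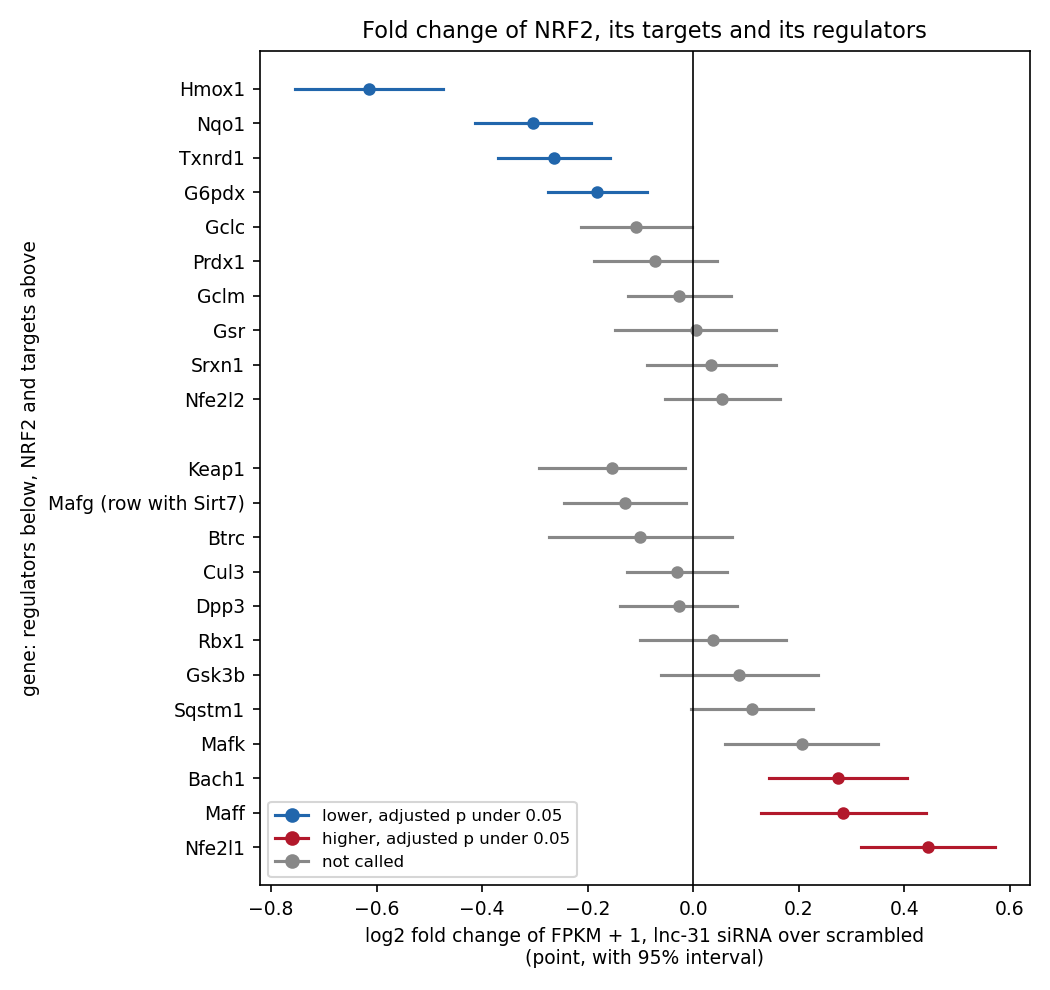
Log2 fold change of FPKM + 1 (horizontal axis, lnc-31 siRNA over scrambled siRNA) with 95% intervals from limma. The upper block holds NRF2 and its targets, and the lower block its regulators and the related gene Nfe2l1. In the upper block 4 genes are called lower, from -0.61 for Hmox1 to -0.18 for G6pdx, and in the lower block 3 are called higher.

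Other genes of the antioxidant pathway went both ways, with list medians near that of all rows. Beside the counts of each list below stand the shares over all tested rows, 5.64% called higher and 6.78% lower. Of 33 tested genes of glutathione use and supply, 3 rose, 5 fell and 25 did not pass (median log2 fold change 0.02). Among those that rose, Gsta3 read 0.472 and 0.654 FPKM in the controls and 1.48 and 1.40 with lnc-31 siRNA. It passed the filter of 1 FPKM only through the group where it was higher. With the filter at 5 FPKM, 2 genes of this list rose. Slc7a11, the cystine transporter that feeds glutathione synthesis, rose from 12.2 and 11.4 FPKM to 19.8 and 20.5 (log2 fold change 0.73, adjusted p = 0.0055), and its partner Slc3a2 from 71.9 and 72.1 to 97.1 and 100.5 (0.45, adjusted p = 0.0057). Glutaredoxin (Glrx), which removes glutathione from proteins, fell from 26.3 and 27.1 FPKM to 17.6 and 15.9 (-0.64, adjusted p = 0.0068). The glutathione transferase Gsta4 fell from 306 and 317 FPKM to 218 and 231 (-0.47, adjusted p = 0.0082), a call lost without scrambled siRNA 2 (0.057). The 5 that fell also held the glutathione conjugate exporter Abcc1 and the transferase Mgst3.

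Of 21 genes of the thioredoxin, peroxiredoxin and superoxide list beyond those above, 3 rose, none fell and 18 did not pass (median 0.01). Txnip, an inhibitor of thioredoxin, rose from 3.55 and 3.75 FPKM to 6.96 and 6.43 (log2 fold change 0.73, adjusted p = 0.0076). Catalase (Cat), which decomposes hydrogen peroxide, rose from 37.3 and 38.0 FPKM to 45.2 and 45.6 (0.26, adjusted p = 0.018), and the methionine sulfoxide reductase Msrb2 from 3.55 and 3.68 to 5.32 and 5.28 (0.45, adjusted p = 0.017). The calls of Cat and Msrb2 were lost without any 1 library (adjusted p from 0.065 to 0.095 for Cat and 0.068 to 0.077 for Msrb2). Txnrd3, a relative of Txnrd1 with a log2 fold change of 0.29, did not pass (adjusted p = 0.052), but was called higher under quantile normalization (0.046), median of ratios scaling (0.035) and a constant prior variance (0.044). Median of ratios scaling called 5 of this list higher in place of 3.

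Of 15 further genes of NADPH supply none rose, 3 fell and 12 did not pass (median -0.02). The row counted for Pgls, which did not pass, merges it with Fam129c. Idh1, the cytosolic isocitrate dehydrogenase, fell from 69.0 and 68.6 FPKM to 51.7 and 51.7 (log2 fold change -0.41, adjusted p = 0.0066). The mitochondrial transhydrogenase Nnt fell by 0.34 on the log2 scale (adjusted p = 0.018) and the malic enzyme Me2 by 0.19 (adjusted p = 0.036). Nnt lost its call when scrambled siRNA 1 (0.088) or 2 (0.084) or lnc-31 siRNA 2 (0.073) was dropped, and Me2 with a constant prior variance (0.075) or without any 1 library (0.118 to 0.145). Transketolase (Tkt), of the same pathway as G6pdx, was at 42.6 and 42.6 FPKM and at 49.96 and 46.7 and did not pass (0.18, adjusted p = 0.072).

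Of 23 other NRF2 targets for iron, heme and detoxification, 6 rose, 2 fell and 15 did not pass (median -0.01). The row counted for Ugt1a6a, which rose, merges it with other Ugt1a genes. Those counted for Abcb6 and Trim16, which did not pass, are merged with Atg9a and Fbxw10. Aldh3a1, an aldehyde dehydrogenase, fell from 153 and 158 FPKM to 92.2 and 93.7 (log2 fold change -0.74, adjusted p = 0.0030). Ugdh, which makes UDP-glucuronate for conjugation, rose from 69.6 and 73.0 FPKM to 100.04 and 99.2 (0.48, adjusted p = 0.0057). Osgin1, an oxidative stress-induced growth inhibitor, rose from 30.6 and 30.5 to 41.9 and 40.9 (0.43, adjusted p = 0.0071). Biliverdin reductase B (Blvrb) rose from 32.3 and 33.2 FPKM to 39.2 and 40.1 (0.27, adjusted p = 0.020). That call was lost without any 1 library (log2 fold change 0.25 to 0.29). Biliverdin reductase A (Blvra) was at 27.9 and 28.8 FPKM and at 25.5 and 26.6 and did not pass (-0.12, adjusted p = 0.16).

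In the ATF4 response list most genes were higher. The list was chosen with earlier results of these data known, so its counts are a description and not independent support. The median log2 fold change was 0.44 against -0.09 for NRF2 and its targets. Of 38 tested genes 26 rose, none fell and 12 did not pass, where 5.64% of all tested rows were called higher and 6.78% lower. The groups did not overlap for 37 of them, all with lnc-31 siRNA above, where 28.5% of all tested rows did so. The log2 fold change was 0.90 for Ddit3, which encodes CHOP (adjusted p = 0.0022), 1.01 for the stress protein gene Nupr1 (0.0022), 1.22 for the pseudokinase gene Trib3 (0.0036) and 0.58 for the mitochondrial folate enzyme gene Aldh1l2 (0.0053). Slc7a11 and Slc3a2 belong to this list and to the glutathione list. Leaving out scrambled siRNA 1 or 2 kept 16 and 18 ATF4 genes called higher, leaving out lnc-31 siRNA 1 or 2 kept 21 and 19, and none was called lower. The difference between the lists was not tested, and both use the same 4 libraries.

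**Figure D4:**
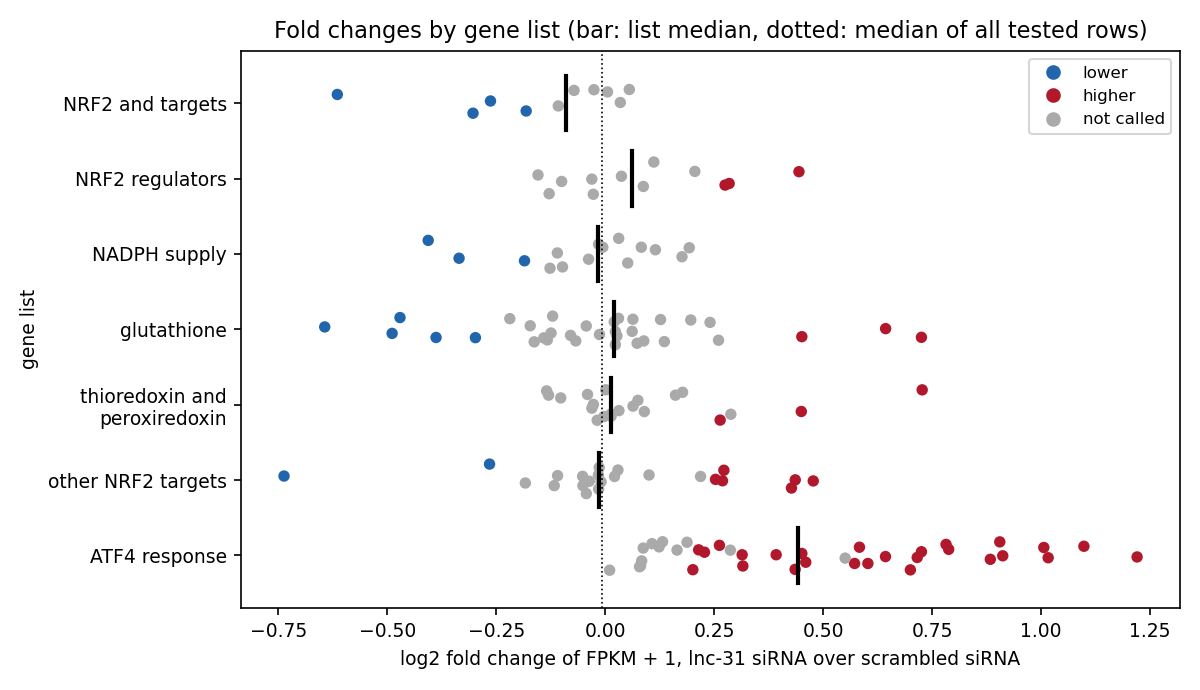
Log2 fold change of FPKM + 1 (horizontal axis) of each tested gene in 7 gene lists (vertical); colours mark limma calls, bars the list medians and the dotted line the median of all tested rows. NRF2 and its targets have a median of -0.09 and the ATF4 response 0.44, while the other lists have medians between -0.02 and 0.06 with calls on one or both sides.

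In the pull-down, which asks which RNAs lnc-31 probes recovered beyond the lacZ background, none of the 10 genes held a peak. The lists have 596 peaks with lnc-31 probes and 476 with lacZ probes, from 1 library each, so no test was possible. Of 10868 tested genes with RefSeq coordinates, 1.98% held a peak with lnc-31 probes and 1.89% with lacZ probes, so 0 of 10 is close to the background. Extending each gene by 5 kb on both sides gave no peak either. The nearest was 7.84 kb from Gsr, where 3 peaks with lnc-31 probes lay in the neighbouring gene Ubxn8. A peak with lnc-31 probes lay 11.3 kb from Nfe2l2 and one with lacZ probes 11.5 kb from it, both in Hnrnpa3. A peak with lnc-31 probes in Nasp lay 82.0 kb from Prdx1, and no other of the 10 genes had a peak of either list within 100 kb.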

How the data were processed

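The authors deposited FPKM for 4 siRNA libraries, made with a TruSeq stranded mRNA kit, per the labels' protocols. Cuffdiff, TopHat2, Bowtie2, BWA, Trimmomatic and CASAVA on mm10 are named, in no stated order, per the submitters' processing notes. The pull-down lists came from NuGEN Ovation libraries, per the labels' protocols, and their peak caller is unnamed. Per-peak values up to 0.01 in these deposited lists were taken for p-values by range only and were not used. Low FPKM showed no steps that would give whole reads. There were 0 sample columns without a label.

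The 11500 rows averaging at least 1 FPKM were taken as log2(FPKM + 1), a scale that understates changes of low genes. They were fitted in R 4.3.3 by limma 3.58.1, two-sided, with a trended prior (3.62 degrees of freedom) and Benjamini-Hochberg adjustment over all tested rows. On simulated data the fit recovered 67.2% of changes of 1.5-fold, 91% of 2-fold and 92.4% of 3-fold. The simulation changed 200 of 11500 rows, none at low FPKM, with independent Gaussian noise at each row's own spread. In the real libraries 1429 rows were called, so these rates need not hold for them. Smaller changes, such as those of Nqo1, Txnrd1 and G6pdx, were not simulated. Peaks were assigned to RefSeq gene bodies (GRCm38.p6, the coordinates of mm10) at 1 base or more of overlap, in Python 3.11.15. All 10 genes, the tested genes of the NRF2 regulators list, up to 4 genes of each other list by smallest p and the Mir31 row are named. Abcc1, Mgst3, Gsta3, Bach2, Blvra, Myf5 and the genes named only for merged rows were added after their values were seen. The genes and lists were chosen with earlier results of these data known. The input library was not analysed here.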

Additional observations from a re-analysis of the deposited data

How the results depend on the processing

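Every fit was repeated with other pseudocounts (0.1, 0.5), without the filter or with one at 5 FPKM, after quantile normalization or median of ratios scaling, with a prior that is constant, with replicate numbers as a block, and with each library dropped on the same rows. With 1 library left out, the lone library of its group is assumed to vary like the others. The count of called rows (1429) was then 260 to 491, that among the 10 genes (4) was 1 to 2, and that over the 6 other lists together (49) was 23 to 30. By list these counts were 0 to 1 of the NRF2 regulators, 3 to 6 for glutathione, 1 for thioredoxin and peroxiredoxin, 1 to 2 for NADPH supply, 3 for the other NRF2 targets and 16 to 21 for the ATF4 response. Fewer samples enter these fits. Median of ratios scaling called 5 of the thioredoxin and peroxiredoxin list in place of 3, and the cause was not tested. The sign of the log2 fold change turned with 1 library left out for 4 genes that were not called, Srxn1 (-0.006 to 0.075), Gsr (-0.064 to 0.074), Rbx1 (-0.013 to 0.087) and Dpp3 (-0.056 to 0.001). Libraries with the same number did not deviate together (correlation of deviations from group means -0.0944), so the replicate block is an alternative only. It called 1613 rows, 4 of the 10 genes and 52 genes of the other lists. The number of the 10 genes with peaks was 0 under each overlap rule and with peaks wider than 200 bases.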
